A study of Mus musculus with 4 samples.

Results

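Genes of the inhibitory interneurons of the retina were followed in 4 RNA-seq libraries of sorted mouse retinal cells. The members are 10 genes that were listed by name as fate factors of amacrine and horizontal cells and as genes of the transmitter GABA, and all 10 were found by their symbol among the 22690 genes of the deposited table. The libraries came from retinas of C57BL/6 mice at postnatal day 2, and all hold cells sorted as 4N, which means that their DNA had been replicated. GFP-negative cells labelled wild type gave 2 libraries. GFP-positive cells in which Casz1 is labelled as conditionally knocked out (cKO) gave the other 2. The sorted fraction and the genotype change together between these groups and cannot be told apart. Casz1 encodes a transcription factor with zinc fingers. The sources used here do not give the Cre driver, the source of GFP or the number of animals behind a library. No label ties a library to an animal, so p-values measure the spread between these libraries, which may be technical.

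Amacrine and horizontal cells carry signals sideways in the retina, and most of them are inhibitory. Both arise from progenitors that express Foxn4 and then Ptf1a, and the AP-2 factors Tfap2a and Tfap2b act after Ptf1a. The chromatin factor Prdm13 promotes amacrine fates, Onecut1 and Onecut2 are needed for horizontal cells, and Lhx1 places horizontal cells in their layer. GABA is made by the glutamate decarboxylases Gad1 and Gad2 and is loaded into synaptic vesicles by Slc32a1, which also carries glycine.

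Of the members whose cKO to wild-type ratio had a clear common sign in both pairs of libraries, RefSeq (build GRCm38.p6) gave an upstream stretch for 3, and these are shown 5′ to 3′ on the strand of the gene. Each holds 249 bases before the start of the gene. Capitals mark the E-box CANNTG, the letters bound by basic helix-loop-helix factors such as Ptf1a. The pattern CANNTG reads the same on both strands, while a single match such as CACCTG need not. Onecut1 lies at chr9:74861671-74861919 (plus strand), Lhx1 at chr11:84525536-84525784 (minus strand) and Slc32a1 at chr2:158610508-158610756 (plus strand).
Onecut1: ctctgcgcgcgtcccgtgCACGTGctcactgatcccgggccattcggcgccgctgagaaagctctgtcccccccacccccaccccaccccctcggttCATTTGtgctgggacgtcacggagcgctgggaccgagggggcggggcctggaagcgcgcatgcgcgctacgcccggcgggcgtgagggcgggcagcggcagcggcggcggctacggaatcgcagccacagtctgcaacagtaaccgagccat
Lhx1: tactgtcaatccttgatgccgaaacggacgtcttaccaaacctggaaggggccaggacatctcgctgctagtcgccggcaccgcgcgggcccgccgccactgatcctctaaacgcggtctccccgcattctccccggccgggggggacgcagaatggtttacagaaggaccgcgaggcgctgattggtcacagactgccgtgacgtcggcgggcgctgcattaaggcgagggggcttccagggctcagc
Slc32a1: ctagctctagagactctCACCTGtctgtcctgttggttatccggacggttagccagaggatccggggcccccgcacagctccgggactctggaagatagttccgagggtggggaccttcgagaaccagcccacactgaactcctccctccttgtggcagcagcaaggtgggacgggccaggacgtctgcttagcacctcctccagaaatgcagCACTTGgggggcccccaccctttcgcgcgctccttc

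The E-box occurred at 2 places upstream of Onecut1, at 2 upstream of Slc32a1 and at 0 upstream of Lhx1, and 66.1% of all 32851 upstream stretches of this length hold at least 1. A match is a run of letters and no shown binding site. The GC content of these stretches was 71.5% for Onecut1, 64.7% for Lhx1 and 62.2% for Slc32a1, against a median of 52.2% over all stretches. Near 2 of the starts a noncoding gene runs the other way: the gap to Lhx1os is 124 bases and that to Gm14204, beside Slc32a1, is 43 bases. Both noncoding genes are absent from the deposited table and were not analysed here.

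The values are normalized read counts, which are reads per gene divided by 1 size factor per library. The column names carry 2 tags, written A and B, with 1 library of each group under each tag. The sources used here do not explain the tags. Reads in genes numbered 75832360 (A) and 83753377 (B) for wild type, then 22326119 (A) and 89473701 (B) for cKO. The shallow cKO library A also stood apart, with a Pearson correlation across genes of 0.902 to 0.918 with the others, against 0.988 to 0.993 among the others. In that library 9179 genes had no read, against 5793 to 6169 in the others. Casz1 itself had 13162 and 11995 in wild type and 8687 and 10772 in cKO (limma adjusted p = 0.771), counted over the whole gene, so this does not measure the deletion. All 10 progenitor markers and all 8 markers of dividing cells were detected in every library. The limma log2 fold change, cKO over wild type, was above 0 for 9 and 7 of them, at medians of 0.16 and 0.38. It was below 0 for 5 of 6 tested bipolar markers and 4 of 6 tested markers of cells outside the neural retina. Their medians were −0.25 and −0.59. Over all tested genes 46.7% were above 0. What such shifts add to the member values was not tested.

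No member passed the test between the groups. All 10 reached a mean normalized count of at least 10, and 0 of 10 had an adjusted p under 0.05 in limma on log2(normalized count + 1), where 0% of the 14480 tested genes passed. With edgeR and with DESeq2 on the recovered reads 0 members passed, where 0 of 14480 and 2 of 17495 genes in the fit passed. By unadjusted limma p under 0.05, 0 members and 274 genes (1.89%) were found. Onecut1 came nearest among the members, with an unadjusted limma p of 0.0534. The log2 fold change, cKO over wild type, was below 0 for 7 members and above 0 for 3, with a median of −0.11 against −0.03 over all tested genes. Its size was 0.35 at the median member and 0.26 at the median gene. In bulk RNA, fewer cells of a type and less RNA per cell cannot be told apart.

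**Figure D1:**
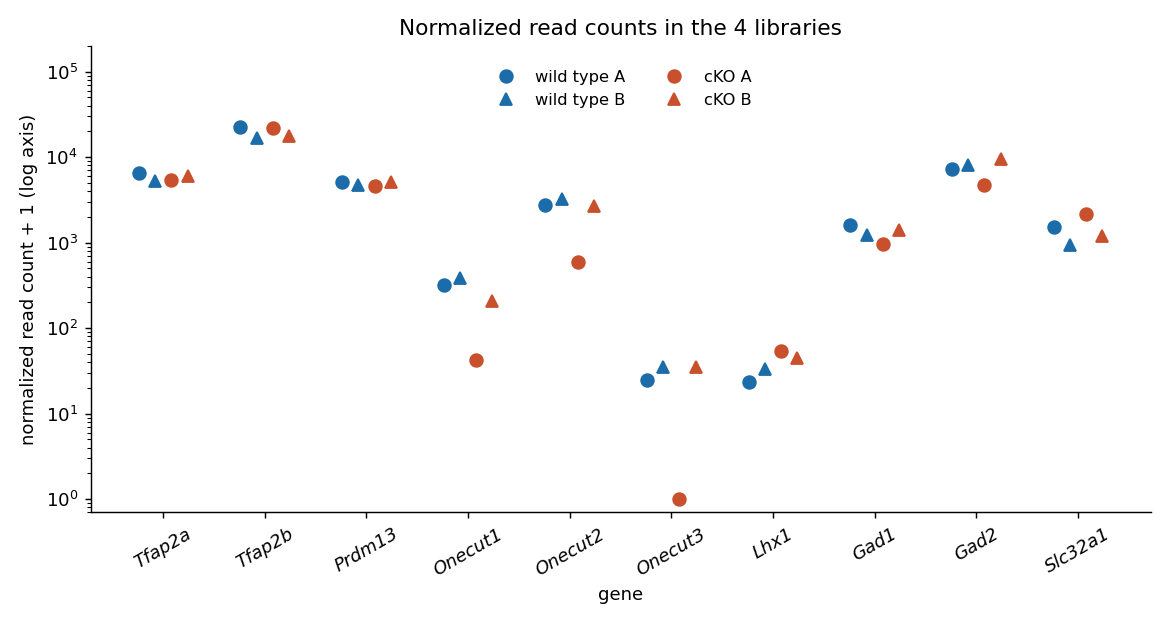
Normalized read count plus 1 on a log axis for each member, with 1 point per library; blue marks wild type, orange marks cKO, circles mark tag A and triangles tag B. Tfap2a, Tfap2b and Prdm13 lie close together in all 4 libraries, while cKO library A is far below the others for Onecut1, Onecut2 and Onecut3, the last of which it holds at 0.

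The amacrine fate factors Tfap2a, Tfap2b and Prdm13 were at nearly the same level in both groups. Tfap2b, an AP-2 transcription factor and the most abundant member, had normalized counts of 22389 and 16577 in wild type (A, then B, as in all pairs that follow) and 21707 and 17756 in cKO. The groups overlapped, and both tag A libraries lay above both tag B libraries. The means were 19483 ± 4110 (SD, n = 2) and 19732 ± 2794 (SD, n = 2), and the log2 fold change was 0.03 with a 95% interval of −0.54 to 0.60 (limma, adjusted p = 0.968).

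Tfap2a, the related AP-2 factor, had 6448 and 5234 in wild type A and B and 5471 and 5995 in cKO A and B. Here the groups overlapped and so did the tags. The log2 fold change was −0.02 with a 95% interval of −0.50 to 0.46 (limma, adjusted p = 0.972). Prdm13, a zinc finger protein of the PRDM family, had 5132 and 4782 in wild type and 4621 and 5124 in cKO, again with overlap. Its log2 fold change was −0.03 with a 95% interval of −0.46 to 0.41 (limma, adjusted p = 0.959), the narrowest interval of the 10 members. The signs of Tfap2a and Prdm13 turned when each library was centred on its median, where both had 0.07. An adjusted p near 1 does not show that the levels are equal. Tfap2b exceeded Tfap2a per kilobase of exon by 2.69 and 2.45 times in wild type A and B and by 3.07 and 2.29 times in cKO A and B.

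The Onecut genes, the homeodomain factors of horizontal cells, were lowest in cKO library A, and 2 of them were lower in both cKO libraries than in both wild-type ones. Onecut1 had normalized counts of 318 and 387 in wild type A and B and 41.9 and 208 in cKO A and B. The cKO values lay below both wild-type values and differed widely from each other. They rest on 15 and 314 reads, with 95% Poisson intervals of 23.5 to 69.1 and 185 to 232 normalized counts, which cover counting error only. The means were 353 ± 48.9 (SD, n = 2) and 125 ± 117 (SD, n = 2), 35.4% of wild type, and the log2 fold change was −1.90, with a 95% interval of −3.83 to 0.04 (limma, adjusted p = 0.771). The pair at tag A had a log2 ratio of −2.89 and the pair at tag B one of −0.90, and 8.42% and 3.07% of tested genes had a ratio as low or lower there. The authors' deposited p-value for Onecut1 is 0.0189, the lowest of the members, and the next is 0.123 for Gad2. Lhx1 has 0.344, Onecut2 0.523, Onecut3 0.742 and Slc32a1 0.895 there. The authors' adjusted p-value is 1 for all 10.

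Onecut2, which acts together with Onecut1 in horizontal cells, had 2750 and 3220 in wild type A and B and 601 and 2671 in cKO A and B. Both cKO libraries were below both wild-type libraries, but cKO library B lay close to wild-type library A. The means were 2985 ± 332 (SD, n = 2) and 1636 ± 1464 (SD, n = 2), and the log2 fold change was −1.23, with a 95% interval of −2.91 to 0.45 (limma, adjusted p = 0.771). The pair at tag A had a log2 ratio of −2.19 and the pair at tag B one of −0.27, and at tag B 13.5% of tested genes had a ratio as low or lower. Of all tested genes, 22.3% had both cKO libraries below both wild-type ones, against these 2 of 10 members. Per kilobase of exon Onecut2 exceeded Onecut1 by 2.19 and 2.11 times in wild type and by 3.63 and 3.26 times in cKO. The ratio in cKO library A rests on 15 reads of Onecut1, with a 95% Poisson interval of 23.5 to 69.1 normalized counts. In cKO library B the ratio rests on 314 reads of Onecut1 and 4040 of Onecut2. Their 95% Poisson intervals there were 185 to 232 and 2589 to 2755, against 356 to 421 and 3128 to 3314 in wild-type library B. Whether the ratios in cKO are higher beyond counting error was not tested.

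Onecut3, the third gene of the family, was scarce: it had 23.5 and 33.8 in wild type A and B and 0 and 33.7 in cKO A and B. At tag B both groups had almost the same level, from 49 and 51 reads. In cKO library A, where 3 reads stand for 8.38 normalized counts, 0 reads allow a level of up to 8.38, below both wild-type values. The log2 fold change of −2.31 has a 95% interval of −7.72 to 3.10 (limma, adjusted p = 0.771) and depends on the value added before the log.

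Onecut1 and Onecut2 are also expressed by ganglion cells, so the ganglion cell markers are given beside them. Their summed normalized count was 4513 and 7080 in wild type A and B and 3856 and 7864 in cKO A and B, so it was lower at tag A in both groups. Of 10 ganglion markers 6 had a log2 fold change above 0 and 4 below, with a median of 0.07, and each had reads in every library. Isl1 is also on the list of fate factors. At tag A their median log2 ratio stood at −0.15, and at tag B it stood at 0.10. Microglial markers were lower as well, at a sum of 20617 and 19450 in wild type and 1224 and 8756 in cKO, with the log2 fold change of all 12 below 0 and 1 of them, Aif1, without a read in cKO library A. Rod markers summed to 96823 and 86299 in wild type and 49863 and 57890 in cKO, with 8 of 9 below 0 and a median log2 ratio of −0.82 at tag A and −0.78 at tag B. No marker of these 3 lists passed in limma, where 0% of all tested genes passed. The part of these cells, and of the depth of cKO library A, in the Onecut values was not tested.

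Lhx1, a LIM homeodomain factor, was the member with the opposite order. It had 22.8 and 32.4 in wild type A and B and 53.1 and 43.6 in cKO A and B. Both cKO values lay above both wild-type values, which held for 1 of 10 members and for 17.2% of all tested genes. The level rests on 19 to 66 reads a library, and the 95% Poisson intervals overlap within both tags, at 15.4 to 32.5 and 32.0 to 82.9 for wild type and cKO at tag A and at 23.8 to 43.1 and 33.8 to 55.5 at tag B. The means were 27.6 ± 6.83 (SD, n = 2) and 48.4 ± 6.68 (SD, n = 2), and the log2 fold change was 0.80, with a 95% interval of −1.26 to 2.86 (limma, adjusted p = 0.773). The pair at tag A had a log2 ratio of 1.19 and the pair at tag B one of 0.42, and 2.58% and 2.90% of tested genes had a ratio as high or higher there.

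**Figure D2:**
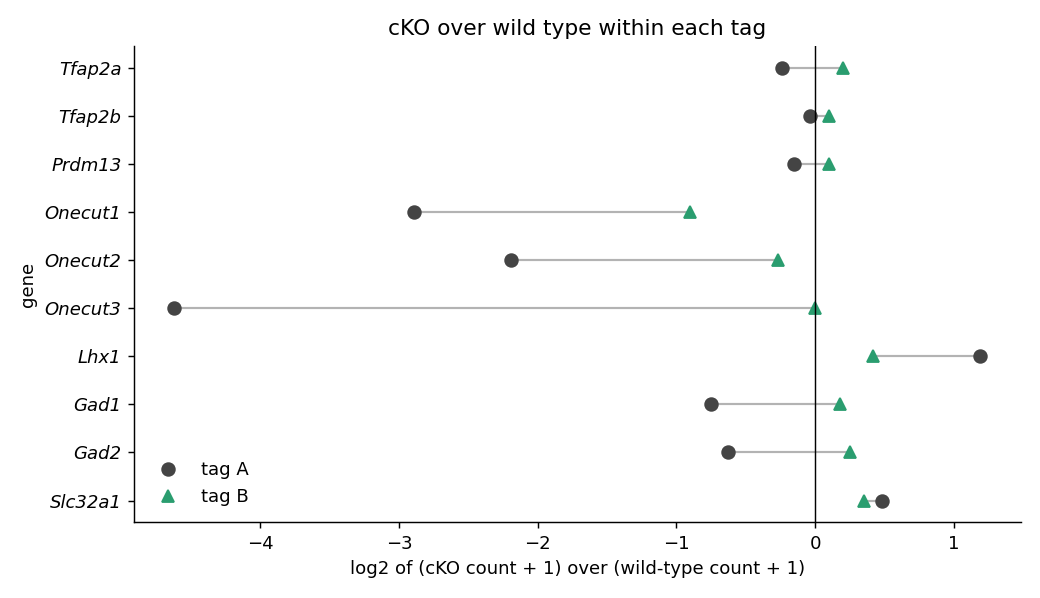
The log2 ratio of cKO over wild type, after adding 1 to each normalized count, for each member within tag A (circles) and tag B (triangles); the line joins the values of 1 gene. Onecut1, Onecut2, Lhx1 and Slc32a1 are on the same side of 0 at both tags, Onecut3 runs from −4.62 at tag A to almost 0 at tag B, and Tfap2a, Tfap2b, Prdm13, Gad1 and Gad2 are below 0 at tag A and above 0 at tag B.

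The genes that make GABA and the gene that loads it into vesicles differed in their pattern. Gad2, the more abundant decarboxylase, had 7254 and 8050 in wild type A and B and 4672 and 9582 in cKO A and B. The lowest and the highest of the 4 values were both cKO libraries, and both tag B libraries lay above both tag A libraries. The means were 7652 ± 563 (SD, n = 2) and 7127 ± 3472 (SD, n = 2), with a log2 fold change of −0.19 and a 95% interval of −1.07 to 0.69 (limma, adjusted p = 0.847).

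Gad1, the decarboxylase that supplies most basal GABA, had 1608 and 1231 in wild type A and B and 956 and 1394 in cKO A and B. The groups overlapped, with cKO library A lowest. The log2 fold change was −0.29 with a 95% interval of −0.98 to 0.41 (limma, adjusted p = 0.771). The log2 ratio changed sign between tags for both decarboxylases: it was −0.75 at A and 0.18 at B for Gad1, and −0.63 at A and 0.25 at B for Gad2. Per kilobase of exon Gad2 exceeded Gad1 by 5.86 and 8.50 times in wild type A and B and by 6.36 and 8.94 times in cKO A and B, so this ratio was higher at tag B in both groups.

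Slc32a1, the vesicular transporter, had 1534 and 931 in wild type A and B and 2143 and 1189 in cKO A and B. Within each tag the cKO library was higher, yet the tags differed more than the groups and the groups overlapped. The means were 1232 ± 426 (SD, n = 2) and 1666 ± 674 (SD, n = 2), and the log2 fold change was 0.42, with a 95% interval of −0.54 to 1.37 (limma, adjusted p = 0.771). The pair at tag A had a log2 ratio of 0.48 and the pair at tag B one of 0.35, and 16.1% and 3.87% of tested genes had a ratio as high or higher there. Between tags, A over B, it was 0.72 in wild type and 0.85 in cKO.

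The tags separated some members more clearly than the groups did. Both tag A libraries lay above both tag B libraries for 2 members, Tfap2b and Slc32a1, as for 22.6% of tested genes. The reverse order held for 2 members, Onecut3 and Gad2, as for 22.9% of tested genes. The shares among the members are thus near those over all genes. The median absolute log2 difference between the libraries of a group was 0.34 in wild type and 0.70 in cKO over the members, against 0.20 and 0.42 over all tested genes. Members were higher in cKO in 2 of 10 cases at tag A, with a median log2 ratio of −0.44, and in 7 of 10 at tag B, with a median of 0.14. Over all tested genes 46.8% were higher in cKO at tag A, with a median of −0.05, and 49.3% at tag B, with a median of −0.00.

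Per kilobase of exon the members spanned a wide range of levels. In wild type the mean normalized count per kilobase was 3074 ± 648 (SD, n = 2) for Tfap2b, 1302 ± 95.8 (SD, n = 2) for Gad2, 1191 ± 175 (SD, n = 2) for Tfap2a and 1158 ± 57.9 (SD, n = 2) for Prdm13. Of the last 3, Tfap2a overlapped both Gad2 and Prdm13, while Gad2 lay above Prdm13 in both wild-type libraries (1235 and 1370 against 1199 and 1117). Whether these levels differ was not tested. Then came Slc32a1 with 441 ± 152 (SD, n = 2), Gad1 with 186 ± 34.9 (SD, n = 2) and Onecut2 with 184 ± 20.5 (SD, n = 2), and the levels of Gad1 and Onecut2 did not differ beyond their spread. Onecut1 had 85.7 ± 11.9 (SD, n = 2). Lhx1 with 6.78 ± 1.68 (SD, n = 2) and Onecut3 with 6.00 ± 1.52 (SD, n = 2) were lowest and not apart.
In cKO the order per kilobase began with Tfap2b at 3113 ± 441 (SD, n = 2), followed by Gad2 at 1213 ± 591 (SD, n = 2), Tfap2a at 1169 ± 75.6 (SD, n = 2) and Prdm13 at 1138 ± 83.0 (SD, n = 2). In cKO the last 3 did not differ beyond their spread, and Gad2 was below Tfap2a and Prdm13 in cKO library A (795, 1116 and 1080 per kilobase) and above them in cKO library B (1631, 1223 and 1197). Tfap2b stood at the 92.7th to 95.4th percentile of level per kilobase among the 14357 tested genes with a known length, and Onecut1 at the 11.6th to 25.3rd. Summed over the 10 members, the normalized count was 47479 and 40479 in wild type A and B and 40265 and 43996 in cKO A and B, and Tfap2b made up 40.4% to 53.9% of it.

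**Figure D3:**
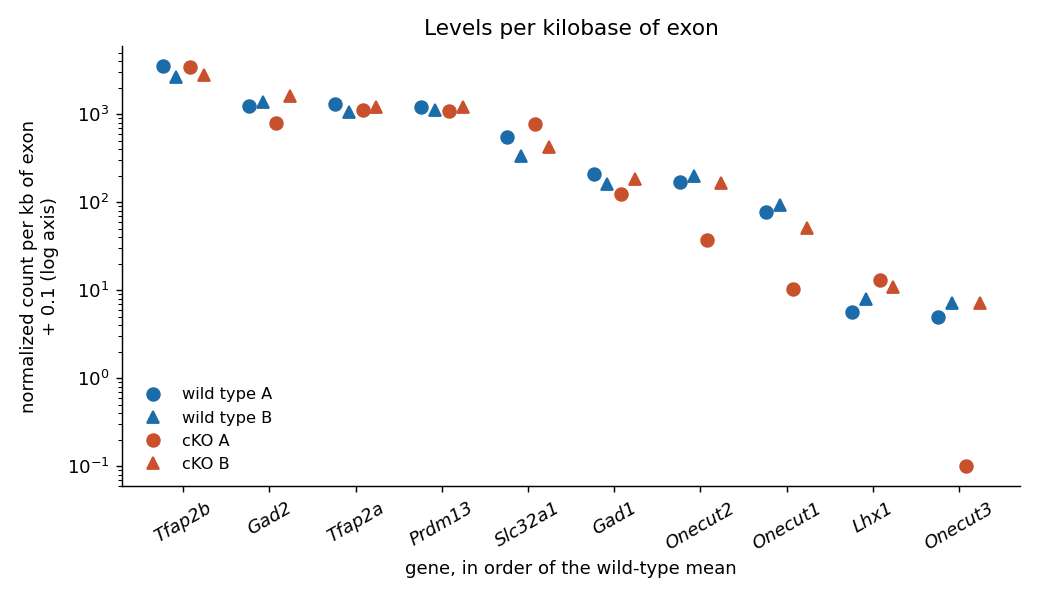
Normalized count per kilobase of exon plus 0.1, on a log axis, with 1 point per library and genes in order of their wild-type mean. Tfap2b is highest in every library, Tfap2a and Prdm13 lie together at a lower level, Gad2 is beside them except in cKO library A, where it is near Slc32a1, and Lhx1 and Onecut3 are lowest in wild type.

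Positions and neighbours bear on how the reads of some members were counted. On GRCm38 (GENCODE M21), Tfap2a is at chromosome 13, 40715302 to 40738376, minus strand, and shares 380, 265 and 73 exon bases with the antisense genes Gm26688, Gm47061 and Gm47067. Slc32a1, at chromosome 2, 158610767 to 158615748, plus strand, shares 697 exon bases with the antisense gene Gm14205. Onecut1, at chromosome 9, 74861921 to 74891781, plus strand, shares 2171 of its 4113 exon bases with the noncoding gene Gm20649 on the same strand. The sources used here do not say whether the authors' counting split such reads or used strand, so these 3 levels are uncertain. None of the overlapping genes named here is among the genes of the deposited table. Gad1 is at chromosome 2, 70553072 to 70602014, Gad2 at chromosome 2, 22622205 to 22693874, and Tfap2b at chromosome 1, 19208914 to 19238576, all on the plus strand. Prdm13 is at chromosome 4, 21677480 to 21685963, and Lhx1 at chromosome 11, 84518284 to 84525535, both on the minus strand, and Onecut3 is at chromosome 10, 80494835 to 80517276, plus strand. All are protein-coding.

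Leaving out either cKO library changed what passed. Without cKO library A 0 of 10 members passed, against 0.522% of tested genes, and the log2 fold change was −0.75 for Onecut1 (limma, adjusted p = 0.673), −0.16 for Onecut2 and 0.33 for Gad2. Without cKO library B 5 of 10 members passed, against 39.2% of all tested genes. These were Onecut1 at −3.04, Onecut2 at −2.31, Onecut3 at −4.87, Gad2 at −0.71 and Slc32a1 at 0.84 (limma, adjusted p from 9.09e-10 to 0.00823). Each of these fits assumes that the lone cKO library varies as the wild-type pair does, and the large share of genes that passed with cKO library A alone is the background of that count.

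Other genes of the inhibitory interneuron programme were taken in 4 lists. In limma 0 of them passed, where 0% of all 14480 tested genes passed, so this count says nothing particular about the lists. Of 23 tested fate factors 0 passed, 8 were above 0 and 15 below, with a median log2 fold change of −0.09, and by unadjusted limma p under 0.05 the count was 0. Pax6, an eye field factor that amacrine cells keep, had a log2 fold change of −0.15, Rorb, a nuclear receptor, had −0.49, and the bHLH factors Neurod1 and Neurod4 had −0.42 and −0.13. Foxn4 had 9643 and 9708 in wild type A and B and 11760 and 10120 in cKO A and B, and Ptf1a had 1266 and 1369 and then 1296 and 1460; these 2 are named as the upstream genes of the programme, outside the rule for names. Ebf1 repeated the order of the Onecut genes at tag A, with 260 and 436 in wild type and 33.5 and 457 in cKO, and was singled out after its values were seen. Tfap2e, another AP-2 gene, was singled out in the same way. Its 1537 and 945 in wild type and 2098 and 1209 in cKO lie close to the values of Slc32a1 in all 4 libraries. These counts are not divided by exon length, so their likeness is a description only.

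GABA uptake, breakdown and receptor genes had 24 tested members, of which 0 passed, 14 were above 0 and 10 below, at a median of 0.09, with 0 at an unadjusted limma p under 0.05. Abat, which breaks GABA down, had a log2 fold change of 0.41, Gabbr1, a subunit of the metabotropic receptor, had −0.21, and Nlgn2, an adhesion protein of inhibitory synapses, had 0.08. Both cKO libraries were above both wild-type ones for 6 of the 24 and below them for 3, where all genes gave 17.2% and 22.3%. Of 5 tested glycine genes 0 passed, 1 was above 0 and 4 below, at a median of −0.67. Slc6a9, the glycine transporter of glia and amacrine cells, had 4393 and 3078 in wild type A and B and 2274 and 2354 in cKO A and B. Both cKO values lay below both wild-type values, as for 3 of the 5 glycine genes and 22.3% of all tested genes. The reverse order held for 1 of the 5, against 17.2%. The log2 fold change of Slc6a9 was −0.67 (limma, adjusted p = 0.771). It was the 1 glycine gene of 5 with an unadjusted limma p under 0.05, against 1.89% of all tested genes. That count was 0 with median rescaling and without the mean-dependent prior. It was 2 with no filter and with the replicate block, a fit that gave 9.5% of all tested genes an unadjusted p under 0.05. Slc6a5, the neuronal glycine transporter, had −1.05, and the receptor genes Glra2 and Glrb had 0.36 and −0.06.

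Markers of maturing amacrine and horizontal cells showed no change that passed, where 0% of all tested genes passed. Of 23 listed 16 reached the level for testing and 12 averaged at least 50, and of these 0 passed, 5 were above 0 and 11 below, at a median of −0.09, with 0 at an unadjusted limma p under 0.05. Elavl3, a neuronal RNA-binding protein, had a log2 fold change of −0.14, Dab1, an adaptor of Reelin signalling, had 0.17, Megf10, a receptor that spaces starburst and horizontal cells, had −0.23, and Calb2, calretinin, had −0.04. In cKO library A 3 of the 16 had no read, namely Chat, Megf11 and Cartpt. Megf11 had 160 and 196 in wild type A and B and 256 in cKO B, against an upper limit of 8.38 that 0 reads allow in cKO library A. The 3 were named because the count is small.

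**Figure D4:**
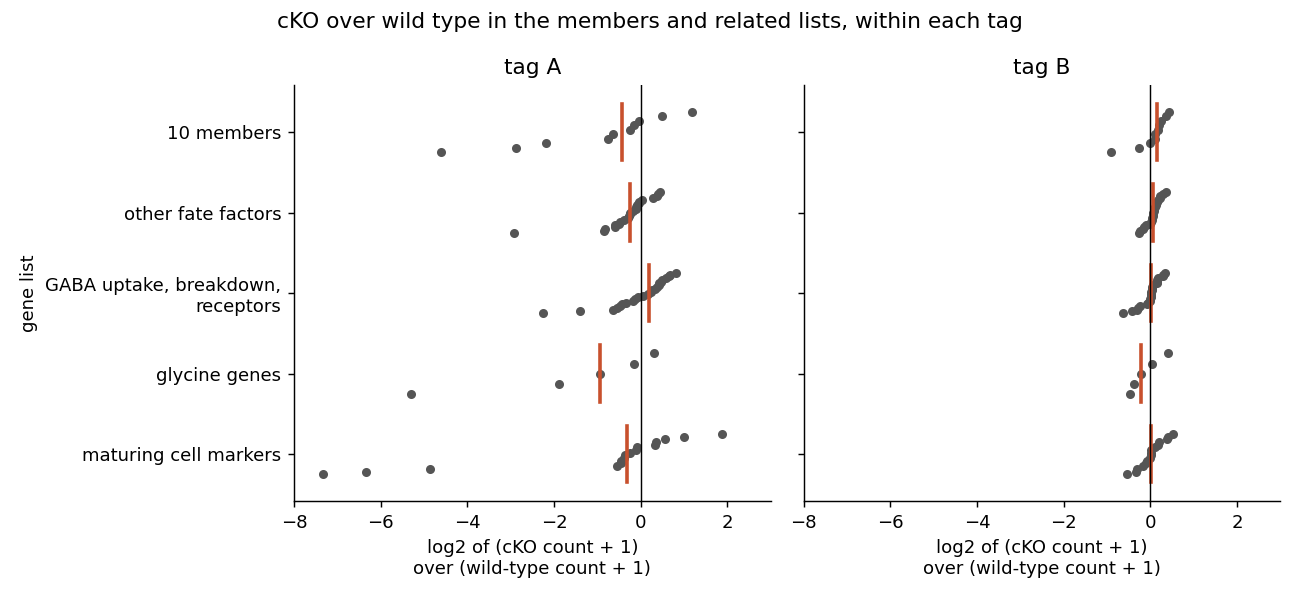
The log2 ratio of cKO over wild type within tag A (left) and tag B (right), after adding 1 to each normalized count, with 1 point per tested gene of the members and of 4 related lists and an orange line at each median. The medians at tag A lie between −0.95 and 0.19, and those at tag B lie between −0.21 and 0.14.

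The genes with the pattern most like the median profile of the members over the 4 libraries were Prrg1, Arsg, Map10, C2cd4c and Sema4c, at Euclidean distances of 0.051 to 0.068 on the centred log2 scale. Among the members themselves Tfap2a, Prdm13 and Gad1 lay nearest to that profile, each at 0.23, and Onecut3, Onecut1 and Onecut2 lay farthest, at 4.02, 2.25 and 1.69. With 4 libraries such a likeness is a description only.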

How the data were processed

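RNA-seq of 4 libraries, 2 per group, was used. Per the submitters' processing notes the authors used FastQC, TopHat, HTSeq and DESeq with build mm10; the sources used here do not give settings, annotation or strand. The deposited signal is a normalized read count, in which 100% of values were whole multiples of 1 read within 0.01 reads, so reads were recovered. The deposited p-value columns are the authors'. Both cKO columns are headed replicate 2 and were assigned to their group alone. The test, for genes averaging 10 or more, was limma 3.58.1 (log2 scale after adding 1, mean-dependent prior, two-sided, Benjamini-Hochberg at 0.05, R 4.3.3), which was checked on simulated reads. The simulation gave every library the same spread, so it does not cover a library that stands apart as cKO library A does. Alternatives were other pseudocounts, filters, scaling and prior, edgeR 4.0.16 and DESeq2 1.42.0 on the recovered reads, blocking on tag, and leaving out each library. GENCODE M21 held 96.1% of the gene identifiers. Exon lengths are unions over transcripts. Related genes were named by the 4 highest means per list; 1 of these genes is not reported here. Members and lists were chosen with earlier results of these data known.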

Additional observations from a re-analysis of the deposited data

How the results depend on the processing

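When 0.5 or 5 was added before the log, with all genes or those averaging 50 or more, with median rescaling, limma without the mean-dependent prior and edgeR, 0 members and 0 genes passed; at an average of 50 or more Onecut3 and Lhx1 were not tested. DESeq2 called 2 genes, none of them a member. By unadjusted limma p under 0.05, 1 member each was found: Onecut1 with 5 added and with median rescaling, and Lhx1 without the mean-dependent prior. In these settings 323, 299 and 220 of all 14480 tested genes were found. Leaving out each library in turn gave 0 to 5662 genes, 0 to 5 members, 0 to 7 fate factors, 0 to 3 GABA uptake and receptor genes, 0 to 3 glycine genes and 0 to 5 maturing markers. The highest counts all came without cKO library B, and the cause was not tested. The median log2 fold change of the members was −0.33 to 0.02 over the left-out libraries, against −0.11 with all. Median rescaling turned Tfap2a and Prdm13 to 0.07. Over the left-out libraries the log2 fold change was −0.17 to 0.13 for Tfap2a, −0.19 to 0.24 for Tfap2b, −0.10 to 0.05 for Prdm13, −3.04 to −0.75 for Onecut1, −2.31 to −0.16 for Onecut2, −4.87 to 0.25 for Onecut3, 0.56 to 1.05 for Lhx1, −0.56 to −0.01 for Gad1, −0.71 to 0.33 for Gad2 and −0.01 to 0.84 for Slc32a1. Of 128 member values recomputed 112 kept their direction and their side of the threshold and 11 turned. The rest came from the fit without cKO library B. The filters, the prior and the block cannot change a log2 fold change, so its direction was fixed in advance there.

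The tags are shared by 1 library of each group, and no label says that they mark a shared experiment. Across genes, libraries with the same tag deviated from their group means with a correlation of 0.258. With the replicate block 0 members and 0 genes passed in limma; Onecut1 and Onecut2 had an unadjusted p of 0.00599 and 0.00789 and both an adjusted p of 0.426, in a fit that gave 1375 genes (9.5%) an unadjusted p under 0.05. The depth of cKO library A, where 1 read is worth 2.79 normalized counts, limits Onecut1, Onecut3 and Lhx1 most.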
